A study of Mus musculus with 4 samples.

Results

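The cells described here passed a fibroblast gate in mouse omental tumors and carried transcripts of Pi16, Dpp4 or Clec3b, genes that mark progenitor-type fibroblasts of fat and connective tissue. Of these cells 21 had little or no Lum, a fibroblast gene. As a group, though not in every cell, those 21 carried mesothelial markers that go against the progenitor-type name. All 63 cells are therefore called gated cells throughout. They numbered 63 of the 338 cells that passed a fibroblast gate, of 8332 cells kept from 3 tumor libraries and of 11253 cells kept in the whole series. A cell entered the fibroblast gate with at least 20 UMIs (unique molecular identifiers, each counting 1 captured transcript) of Col1a1, Col1a2, Col3a1 and Dcn together and at least 1 of Pdgfra and Lum, at most 1 each of Ptprc and Cdkn2a, and 0 of Pecam1. It was a member when Pi16, Dpp4 and Clec3b together gave at least 3 UMIs and more than Cthrc1, Postn and Col8a1 together. These measured values chose the members, so the levels of all those genes are descriptions. Cells with at least 3 UMIs of Cthrc1, Postn and Col8a1 together, and more than of the 3 gate genes, are called activated cells. The remaining cells of the gate are called neither.

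The study profiled single cells of tumors formed in the omentum by the KPCA.A, KPCA.B and KPCA.C lines, with 1 droplet library per line, and of 1 ascites library. All 4 libraries came from C57BL6J mice, and the labels give fallopian tube epithelium as the cell type of the lines. Each tumor library pooled 4 tumors. The age given is 8 weeks for the tumor libraries and 9 weeks for the ascites library. The alleles of the lines, and the line behind the ascites, are not given in the labels used here. With 1 library per line, no difference between lines has a replicate check. Differences between cell classes were seen within each of the 3 libraries, but the gate chose those classes from the same counts. No test was therefore run, and intervals are 95% intervals that cover counting error only.

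Progenitor-type fibroblasts that carry Pi16 and Dpp4 have been described in the connective tissue around fat and vessels, where they can give rise to other fibroblasts and to fat cell precursors. Pi16 encodes a secreted peptidase inhibitor, Dpp4 a membrane peptidase that trims peptide hormones and chemokines, and Clec3b tetranectin, which binds plasminogen. The omentum is a fat-bearing fold of the peritoneum, covered by mesothelium that expresses Wt1, and it is a common site of ovarian cancer spread. In the files' mm10 build, GENCODE vM21 places Pi16 at chr17:29317680-29330593 on the plus strand, Dpp4 at chr2:62330073-62412231 on the minus strand and Clec3b at chr9:123150946-123157432 on the plus strand, and each interval spans the whole gene.

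The KPCA.A library gave 19 members, KPCA.B 22 and KPCA.C 22. They made up 11.7% of the fibroblast-gate cells of KPCA.A (Clopper-Pearson interval 7.17 to 17.6), 29.7% in KPCA.B (19.7 to 41.5) and 21.8% in KPCA.C (14.2 to 31.1). Of all kept cells they were 0.718%, 0.851% and 0.710%, and of members plus activated cells 44.2%, 45.8% and 43.1%. The order between lines thus depended on the cells counted beside them, and the intervals of KPCA.A and KPCA.B did not overlap for the first share. The ascites library held 0 members among 2921 cells, which by a limit of 3 counts allows a share of up to 0.103%. The median ascites cell had 2077 UMIs and only 2 cells there passed the fibroblast gate, so this share was hardly measurable at that depth. No member barcode was shared with another library, although the tumor libraries shared 22 kept barcodes.

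Depth differed between lines and classes. The median member had 5844 UMIs in KPCA.A, 8369.5 in KPCA.B and 46081.5 in KPCA.C, against 24860, 25029.5 and 38701 in activated cells. When each cell was thinned to 5000 UMIs and gated again, with 12, 5 and 3 shallower cells left out, the shares of the fibroblast gate were 3.94% (5 of 127 cells), 18.0% (11 of 61) and 8.41% (9 of 107). The intervals were 1.29 to 8.95, 9.36 to 30.0 and 3.92 to 15.4, and KPCA.B again had the highest share. The cells left out included members in KPCA.A and KPCA.B. Thinning also let other cells into the fibroblast gate, which in KPCA.C held 107 cells against 101 at full depth. These shares therefore do not describe the same cells at equal depth. The order turned when Clec3b was left out of the gate, with shares of 4.91%, 5.41% and 12.9% (8, 4 and 13 cells) and KPCA.C highest. The mitochondrial limit of 15% removed 53.1% of barcodes in KPCA.A, against 22.5% in KPCA.B and 24.3% in KPCA.C, and its part in these shares was not tested.

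Clec3b carried most of the gate. The members held 549 UMIs of Clec3b, 191 of Pi16 and 61 of Dpp4, and 51, 23 and 26 of the 63 cells had at least 1. All 3 genes were seen together in 9 cells, while 35 cells had only 1 of them, and in 28 of those it was Clec3b. Clec3b was also the gate gene found least elsewhere, since members held 64.6%, 71.8% and 73.9% of the Clec3b UMIs of all kept cells in KPCA.A, KPCA.B and KPCA.C. They held 16.6%, 6.88% and 20.3% of the Pi16 UMIs and 6.34%, 2.54% and 7.67% of the Dpp4 UMIs, so most transcripts of both genes lay in other cells. Among cells gated as macrophages (median 9000, 15554.5 and 15032 UMIs), 0%, 2.19% and 0.284% had Clec3b but 4.96%, 24.6% and 16.9% had Pi16. The Pi16 share of members was 26.3%, 18.2% and 63.6%, so in KPCA.B it did not exceed that of the macrophage gate.

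**Figure D1:**
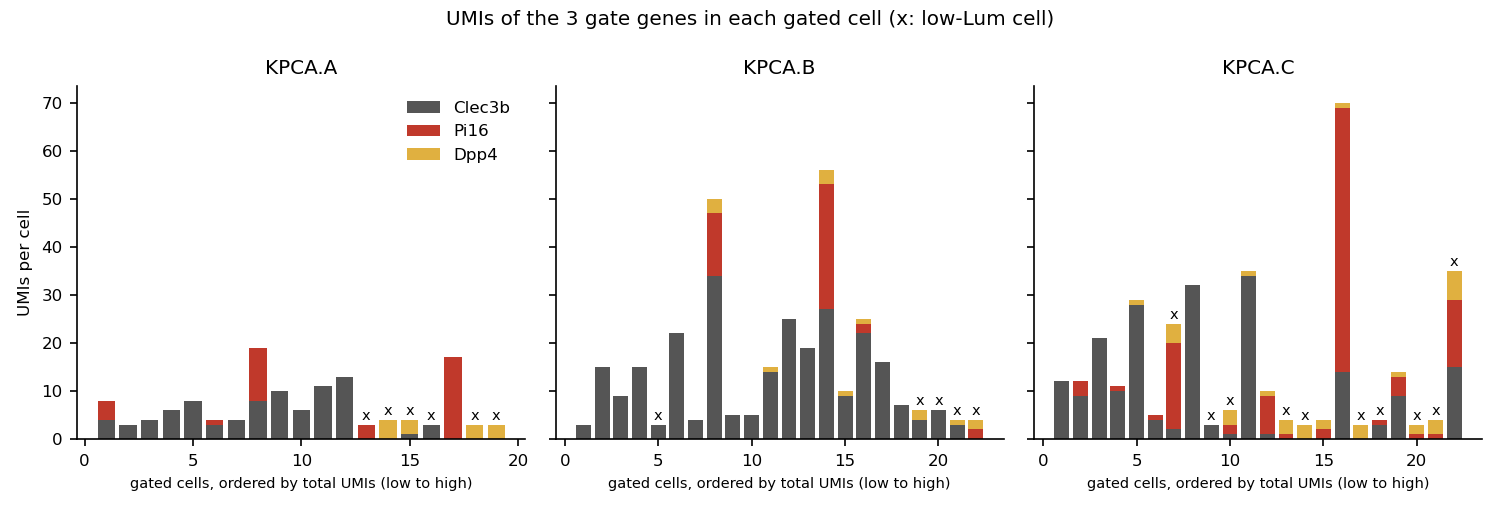
Stacked bars give the UMIs (y axis) of Clec3b, Pi16 and Dpp4 in each of the 63 gated cells, ordered by total UMIs within each library (x axis), and an x marks low-Lum cells as defined in the text. Clec3b fills most bars among the shallower cells, and the x marks sit mainly on low bars at the deep end, several of them made of Dpp4.

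At the edge of the gate, 11 members had exactly 3 UMIs of the 3 genes, with 15 of Clec3b, 14 of Dpp4 and 4 of Pi16 among them. Just outside, 13 cells had 2 UMIs and more than the activated genes, with 6 of Clec3b, 12 of Dpp4 and 8 of Pi16. A further 11 cells had 3 or more but no more than Cthrc1, Postn and Col8a1 together.

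Few cells stood behind the relation of the 3 gate genes to one another. Each gene was left out of the gate in turn and its level in the cells chosen by the other 2 was set against activated cells chosen the same way. Clec3b, left out, was 3.99-fold higher in KPCA.A (1.62 to 10.2), 7.05-fold in KPCA.B (5.27 to 9.39) and 1.47-fold in KPCA.C (1.01 to 2.15), over 8, 4 and 13 cells chosen without it. Its 13, 83 and 51 UMIs there came from 3, 3 and 7 cells, and the 3 cells of KPCA.B held 34, 27 and 22. The intervals do not cover such spread between cells. Pi16 was 1.92-fold (0.929 to 3.88), 7.72-fold (4.12 to 15.3) and 1.28-fold (0.862 to 1.88) higher, over 16, 21 and 18 cells. Only the KPCA.B interval lay above 1, but its 41 UMIs came from 3 cells, with 26 and 13 of them in single cells. Dpp4 had 0 UMIs in 15 KPCA.A cells so chosen and was 11.97-fold (3.16 to 66.8) and 4.58-fold (1.95 to 11.6) higher in KPCA.B and KPCA.C.

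The cells behind the label were of more than 1 kind. Lum encodes lumican, a collagen-binding proteoglycan of fibroblasts, at chr10:97565128-97572703 on the plus strand. A total of 42 members (13, 17 and 12 in KPCA.A, KPCA.B and KPCA.C) had at least 1 Lum UMI per 10000 UMIs and are called Lum-bearing, and the other 21 (6, 5 and 10) are called low-Lum. This division was chosen after the values were seen and uses a gene of the gate, so what follows is a description. Of activated cells 50.6% met the same limit (40 of 79), and of cells of neither class 7.65% (15 of 196).

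Lum-bearing members were the shallower cells by median. They had 4975, 7965 and 29901.5 UMIs in KPCA.A, KPCA.B and KPCA.C, against 28952, 37963 and 49838 UMIs in low-Lum members. Although fewer, low-Lum members held 69.0%, 55.2% and 58.1% of the members' UMIs, so values summed over all members lean on them. The median member had 13.4 gate-gene UMIs per 10000 when Lum-bearing and 0.826 when low-Lum. Lum-bearing members held 16 Dpp4, 505 Clec3b and 148 Pi16 UMIs, whereas the 132 gate-gene UMIs of low-Lum members were 45 Dpp4, 44 Clec3b and 43 Pi16.

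**Figure D2:**
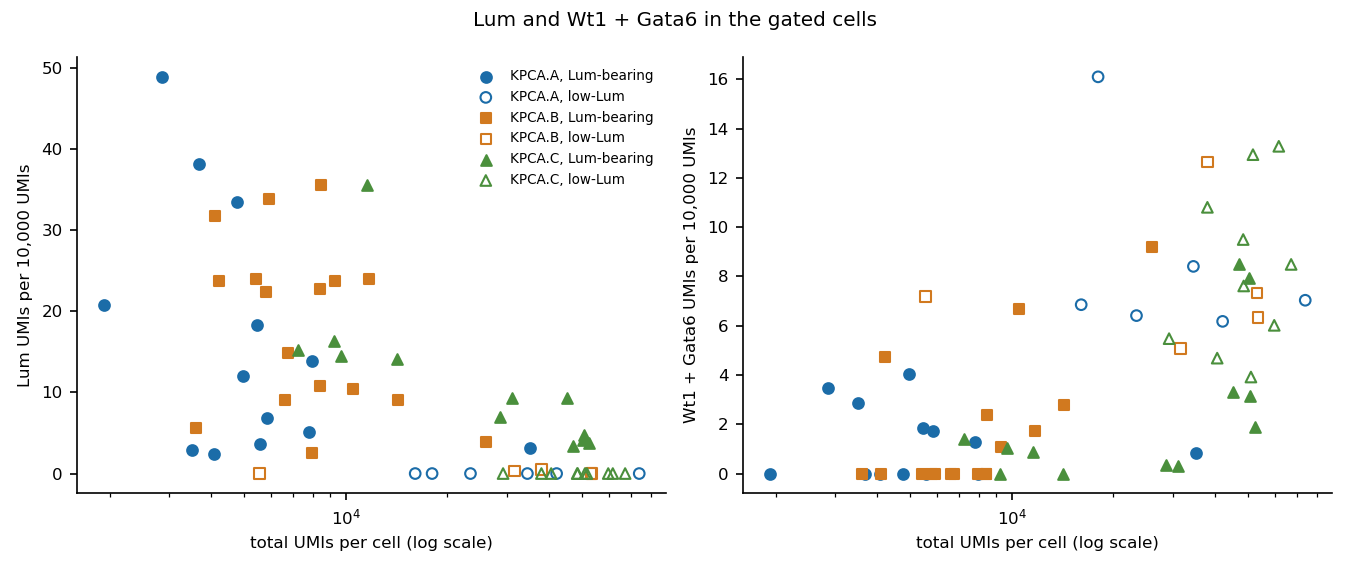
Each point is 1 gated cell, with total UMIs on a log x axis and, on the y axes, UMIs per 10,000 UMIs of Lum (left) and of Wt1 plus Gata6 (right), marked by library and filled for Lum-bearing cells. Lum-bearing cells have 0 to 9.20 Wt1 plus Gata6 UMIs per 10,000 (median 0.86) and low-Lum cells, most of them at the deep end, 3.92 to 16.1 (median 7.20), so the ranges overlap.

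Wt1 and Gata6, transcription factors of the mesothelium and of serosal stroma, were found in 24 (Wt1) and 10 (Gata6) of 42 Lum-bearing members, and both in all 21 low-Lum members. Gata6 had 21.4, 67.8 and 184 CPM (counts per 1000000 summed UMIs) in Lum-bearing members in KPCA.A, KPCA.B and KPCA.C, against 413, 489 and 391 CPM in low-Lum members. Keratin 19, a filament protein of epithelia and mesothelium, had 10.7, 47.5 and 25.2 CPM in Lum-bearing and 490.3, 511 and 381 CPM in low-Lum members. Uroplakin 3b, a membrane protein of mesothelial cells, had 0, 54.3 and 8.39 CPM in Lum-bearing and 106, 269 and 109 CPM in low-Lum members. The low-Lum values were the higher ones in each library.

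The whole list of 8 mesothelial markers had higher sums in low-Lum members. In Lum-bearing members its sum was 10.7, 251 and 106 CPM, with 1, 4 and 7 of the 8 detected and Msln, the mesothelin gene, at 0 UMIs in KPCA.A and KPCA.B. In low-Lum members it was 1077, 1539 and 1062 CPM, with all 8 detected in each line. These UMIs came from 1 of 13, 2 of 17 and 4 of 12 Lum-bearing cells and from 5 of 6, 5 of 5 and 10 of 10 low-Lum cells, so a few Lum-bearing cells carried them too. Activated cells had 228, 654 and 93.6 CPM and cells of neither class 314, 734 and 303 CPM. These markers went against the progenitor-type label in the low-Lum members that carried them, and against the word fibroblast.

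Lum-bearing members expressed matrix genes such as Dpt and Svep1 that were at or near 0 in the low-Lum members. Of 2232 genes measured in both (at least 20 UMIs together in each library), 113 (5.06%) were 2-fold or more higher in Lum-bearing members in all 3 libraries and 64 (2.87%) were lower. Folds for such calls and all log2 values were taken after adding 5 CPM. Dpt, dermatopontin of the collagen matrix, had 1933, 1872 and 1037 CPM in Lum-bearing members in KPCA.A, KPCA.B and KPCA.C, against 0, 0 and 4.03 CPM in low-Lum members. It was detected in 39 of 42 Lum-bearing and 2 of 21 low-Lum cells.

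The remaining genes of that set with the largest differences divide by role. Svep1, a large adhesion protein of the matrix, had 929, 699 and 738 CPM in Lum-bearing members and 0, 0 and 2.01 CPM in low-Lum members. Ebf1, a transcription factor of adipose and stromal precursors, had 513, 759.8 and 316 CPM and 0, 11.0 and 2.01 CPM, and Ccl11, the eosinophil chemokine eotaxin, 566, 265 and 573 CPM and 0, 0 and 0 CPM. Gpx3, the secreted glutathione peroxidase, had 748, 1235 and 643 CPM and 9.61, 5.50 and 14.1 CPM. Dpep1, Sparcl1, Ptn, Abca8a, Lpar1, Ms4a4d and Serpine2 completed the 12 highest, and Dpep1, Sparcl1 and Ccl11 had 0 UMIs in low-Lum members of all 3 libraries. Activated cells also expressed part of this set, with Ccl11 at 92.7, 74.3 and 127 CPM and Serpine2, a protease inhibitor, at 299, 282 and 924 CPM.

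Keratin, uroplakin, connexin and galectin genes were among those higher in low-Lum members. Tnfrsf11b, osteoprotegerin, had 0, 13.6 and 8.39 CPM in Lum-bearing members, against 255, 346 and 556 CPM in low-Lum members. The small heat shock gene Hspb1 had 64.1, 346 and 749 CPM in Lum-bearing and 1918, 2918 and 3936 CPM in low-Lum members. The keratin Krt7, the uroplakin Upk1b, the connexin Gjb5, the galectins Lgals3 and Lgals7, Sorbs2 and Serpinb1a were also among the 12, beside Krt19 and Upk3b. Markers of tumor epithelium summed to 85.5, 27.1 and 184 CPM in Lum-bearing members, 1548, 714 and 479 CPM in low-Lum members and 4403, 1488 and 1776 CPM in cells outside the fibroblast gate. In low-Lum members 6, 5 and 6 of the 8 genes of that list were detected, and Cldn4 and Wfdc18 were at 0 in all 3 lines. The list includes the keratins Krt7, Krt8 and Krt18. Of the 322 UMIs behind the low-Lum sum in KPCA.A, 1 cell held 72 of Krt8 and 14 of Krt18. Another cell held 51 and 70. The part of tumor cell RNA in the low-Lum values was not tested.

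**Figure D3:**
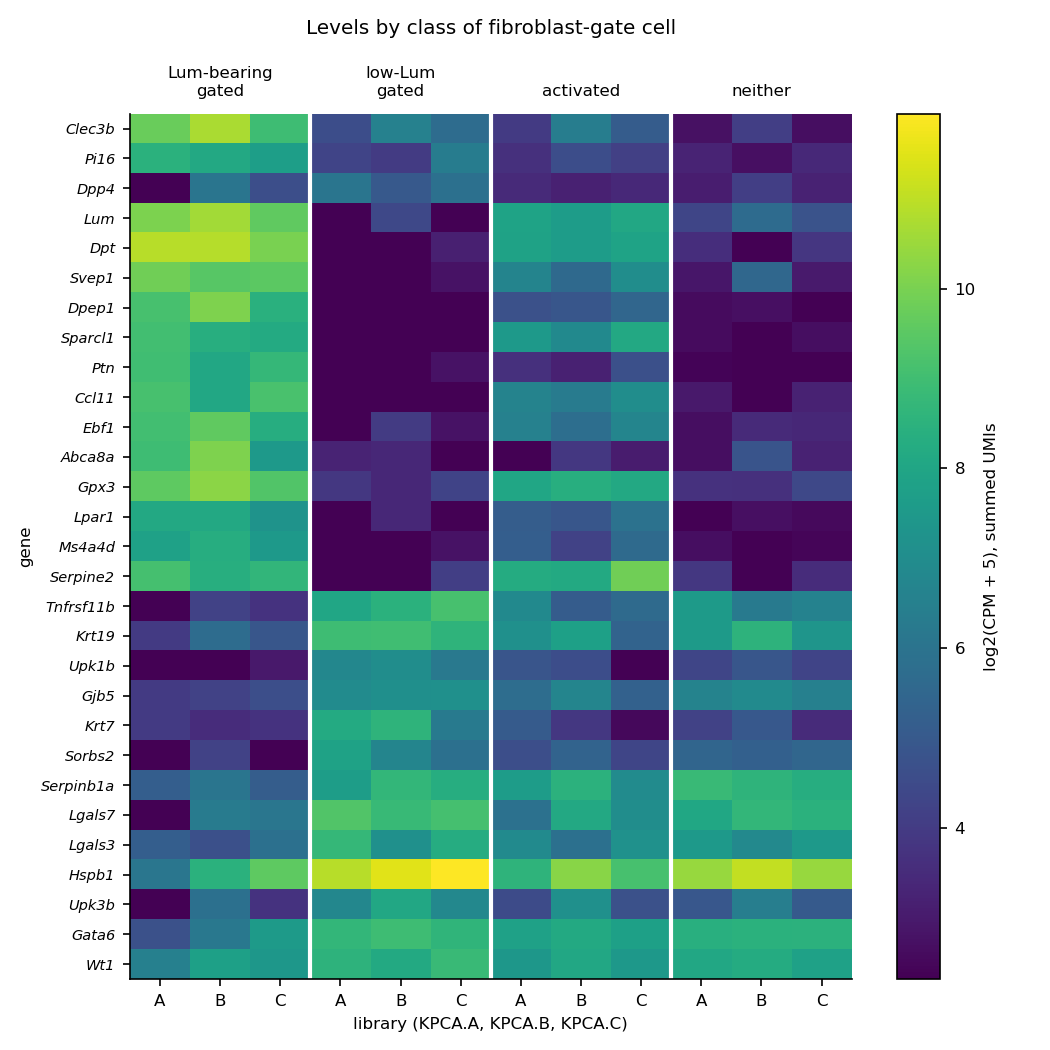
Rows are genes named in the text and columns are the 3 libraries (A, B, C for KPCA.A, KPCA.B, KPCA.C) in 4 classes of fibroblast-gate cells, and colour gives log2(CPM + 5) of summed UMIs. Dpt to Serpine2 are bright in Lum-bearing members and dark in low-Lum members, and Tnfrsf11b to Upk3b show the opposite order.

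Gated and activated cells of the same libraries were then compared, although the gate genes set these classes and the other genes come from the same cells. Of 5686 genes with at least 20 UMIs in the pair of classes in every library, 41 (0.721%) were 2-fold or more higher and 33 (0.58%) were 2-fold or more lower in gated cells in all 3. In single libraries 6.16%, 5.01% and 4.33% were higher and 7.79%, 3.78% and 2.48% lower in KPCA.A, KPCA.B and KPCA.C. With Lum-bearing members alone set against activated cells, 88 of 4837 genes (1.82%) were higher and 61 (1.26%) lower in all 3, and 30 of the 41 and 18 of the 33 were again among them. Activated cells were left undivided in this and all later comparisons with Lum-bearing members, although only 40 of 79 met the Lum limit. Differences that go with Lum and differences between the classes cannot be told apart in those values. Requiring only 2 libraries gave 75 of 6526, 137 of 6188 and 75 of 5706 genes higher without KPCA.A, KPCA.B and KPCA.C in turn. Lower genes then numbered 147 without KPCA.B and 63 without KPCA.C. After thinning to 5000 UMIs per cell only 487 genes were measured, of which 26 were higher and 14 lower. Among these were 7 of the 41 and 2 of the 33, and genes not measured after thinning could not be called.

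Genes of secreted matrix proteins were among the 15 named as higher in gated cells. Smoc2, a calcium-binding matricellular protein, had 222, 398 and 229 CPM in gated cells, against 10.6, 12.4 and 5.91 CPM in activated cells, which gave folds of 20.9 (9.60 to 53.9), 32.1 (16.4 to 71.8) and 38.9 (18.5 to 97.9). It was detected in 10, 11 and 11 gated cells of 19, 22 and 22, and Lum-bearing members had 716, 889 and 456 CPM and low-Lum members 0, 0 and 66.5 CPM. Efemp1, the elastic fibre protein fibulin 3, had 109, 203 and 118 CPM in gated and 4.56, 34.4 and 14.3 CPM in activated cells. Col14a1, a collagen on the surface of fibrils, had 199, 325 and 111 CPM and 59.3, 86.7 and 23.6 CPM.

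Other matrix and receptor genes had the same order. Lama2, the laminin alpha 2 chain of basement membranes, had 106, 146 and 58.5 CPM in gated and 6.08, 6.88 and 16.0 CPM in activated cells. Tnxb, tenascin X, had 166, 437 and 178 CPM and 59.3, 128 and 43.0 CPM. Antxr2, a receptor for collagen VI and anthrax toxin, had 69.6, 109 and 59.7 CPM and 10.6, 19.3 and 19.4 CPM. Gated cells were at least 2-fold above activated cells in each library for all of these.

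Gsn and Ly6a were the most abundant genes of this set. Gsn, the actin-severing protein gelsolin, had 3643, 5963 and 1434 CPM in gated cells and 272, 1142 and 324 CPM in activated cells, with folds of 13.4 (11.4 to 15.8), 5.22 (4.81 to 5.67) and 4.43 (3.94 to 4.98), and it was detected in all 63 gated cells. Its level was 11163, 12374 and 2991 CPM in Lum-bearing members but 259.6, 769 and 312 CPM in low-Lum members. The low-Lum level lay close to that of activated cells in KPCA.A and KPCA.C and below it in KPCA.B. Ly6a, the stem cell antigen Sca-1, had 629.9, 583 and 1198 CPM in gated and 166, 78.4 and 276 CPM in activated cells, with folds of 3.803 (2.99 to 4.86), 7.43 (5.50 to 10.2) and 4.34 (3.83 to 4.93). Low-Lum members had Ly6a levels of 327, 55.0 and 858 CPM. The KPCA.B level was below that of activated cells there, but it rested on at most 7 UMIs per cell.

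Genes for secreted signals and for transport and detoxification were also in the set. Ptn, the heparin-binding growth factor pleiotrophin, had 156, 118 and 179 CPM in gated cells and 7.60, 4.13 and 20.2 CPM in activated cells. Gas6, the ligand of the Axl and Mertk receptors, had 404, 239.8 and 561 CPM and 25.8, 66.0 and 50.6 CPM, and in KPCA.B and KPCA.C it was lower in Lum-bearing than in low-Lum members (844, 163 and 179 CPM in Lum-bearing and 207, 302 and 836 CPM in low-Lum members). Abca8a, a lipid transporter, had 156, 483 and 76.1 CPM in gated and 0, 9.63 and 3.37 CPM in activated cells, so none of its UMIs fell in activated cells of KPCA.A.

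Dpep1, a membrane dipeptidase, had 176, 486 and 140.5 CPM in gated and 21.3, 24.8 and 40.5 CPM in activated cells. Gstm1, a glutathione transferase, had 96.1, 200.4 and 82.0 CPM and 15.2, 52.3 and 27.8 CPM. Thbd, the thrombin receptor thrombomodulin, had 146, 152 and 155 CPM and 31.9, 30.3 and 46.4 CPM. The interferon-inducible Ifi27l2a, with 146, 155 and 516 CPM and 41.0, 46.8 and 133 CPM, was the last of the 15 genes and its highest level was in KPCA.C in both classes. When the gate was built without Clec3b, 5 of the 15 no longer lay above activated cells in every library, with a lowest log2 fold of -2.47 for Ptn, -0.47 for Dpep1 and -0.16 for Lama2, and values just below 0 for Gas6 and Abca8a.

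**Figure D4:**
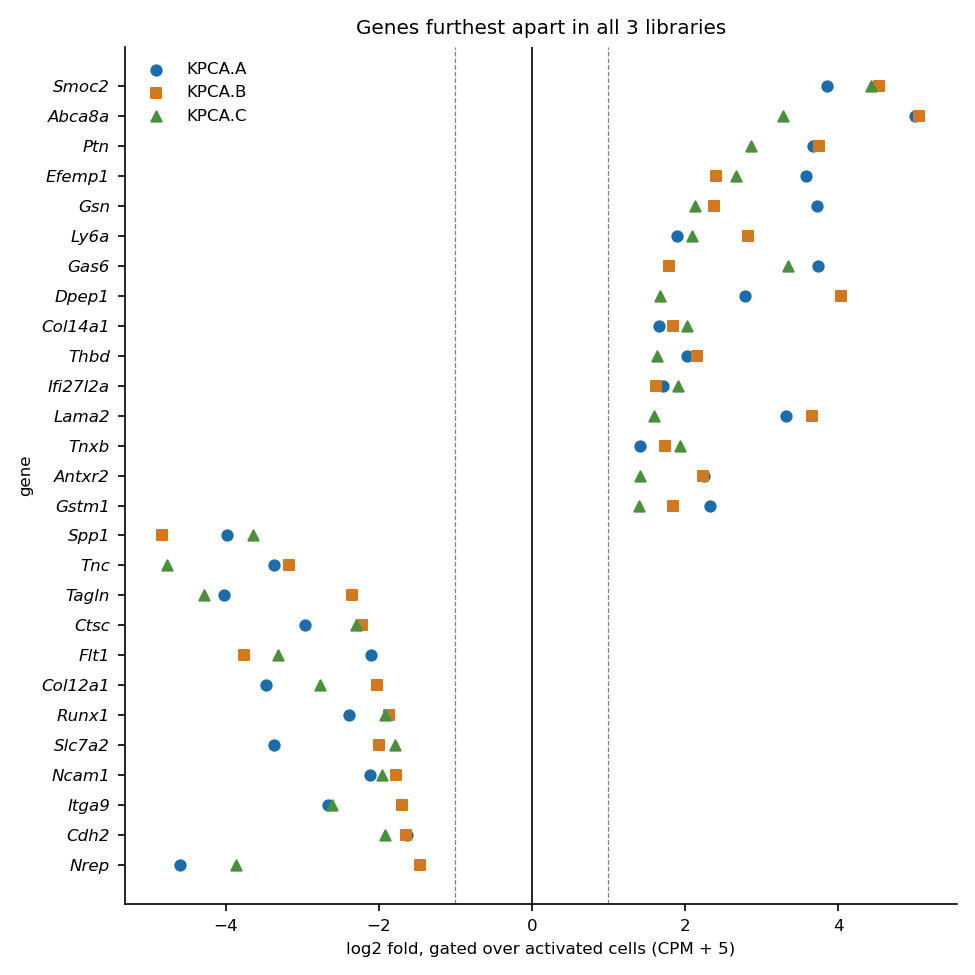
Points give log2 folds, gated over activated cells (x axis, 5 CPM added), for the 15 genes furthest above and 12 furthest below in all 3 libraries (rows), with 1 symbol per library and dashed lines at 2-fold. Smoc2 lies at 3.86, 4.53 and 4.43 and Spp1 at -3.98, -4.83 and -3.65 in KPCA.A, KPCA.B and KPCA.C.

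Spp1, Tnc and the contractile gene Tagln were among the 12 named as lower in gated cells. Spp1, osteopontin, had 143, 3.04 and 335 CPM in gated cells, against 2323, 223 and 4248 CPM in activated cells, with folds of 0.0614 (0.0442 to 0.0830), 0.0136 (0.000343 to 0.0770) and 0.0788 (0.0697 to 0.0888). Tagln, the smooth muscle protein transgelin, had 69.6, 18.2 and 43.3 CPM and 1204, 113 and 932 CPM, and Tnc, tenascin C of healing tissue, 79.6, 6.07 and 12.9 CPM and 869, 94.9 and 483 CPM. Gated cells lay below activated cells in every library, and the lowest activated levels were in KPCA.B. Col12a1, a fibril-associated collagen, had 36.5, 9.11 and 49.2 CPM in gated and 456, 52.3 and 364 CPM in activated cells.

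Adhesion genes and regulators made up most of the rest. Ncam1 and Cdh2, neural cell adhesion molecule and N-cadherin, had 146, 12.1 and 139 CPM and 23.2, 18.2 and 28.1 CPM in gated cells, against 650.4, 53.7 and 555 CPM and 82.1, 67.4 and 119.8 CPM in activated cells. Runx1, a transcription factor of blood and of injured stroma, had 116, 27.3 and 136 CPM in gated and 629, 113 and 526 CPM in activated cells. Flt1, a VEGF receptor, had 19.9, 9.11 and 5.85 CPM and 102, 186 and 103 CPM and was detected in 1, 1 and 4 gated cells. The endothelial markers of a separate list summed to 29.8, 9.11 and 38.6 CPM in gated and 21.3, 8.26 and 12.7 CPM in activated cells, with Cdh5, Emcn, Tie1 and Cldn5 at 0 in gated cells of all 3 lines. Ctsc, Slc7a2, Itga9 and Nrep were the other named genes, and gated cells of KPCA.A had 0 UMIs of Nrep.

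Gene lists put these genes beside their pathways, and each list is given by its median log2 fold, gated over activated, in KPCA.A, KPCA.B and KPCA.C, next to medians of -0.02, 0.04 and 0.03 over all 5686 genes. Of 30 progenitor identity genes 20 were measured, with medians of 1.13, 0.35 and 0.80, and Ly6a, Tnxb and the semaphorin Sema3c were 2-fold or more higher in all 3, next to 0.721% of all genes. Cd34, a surface sialomucin of stromal progenitors, had 255, 383 and 303 CPM in gated and 77.5, 330.2 and 154 CPM in activated cells. The classes differed least in KPCA.B. Lum-bearing members had list medians of 0.37, 0.73 and 0.46 against activated cells, with 5 of 18 genes 2-fold or more higher in all 3 (Ly6a, Ly6c1, Tnxb, Creb5 and Dpt), next to 1.82% of all genes.

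Genes of committed fat cell precursors had their higher medians in the Lum-bearing members. The list had medians of 0.81, 0.61 and 0.26 in all gated cells (12 genes measured) and 1.62, 1.58 and 0.73 in Lum-bearing members (11 genes), both over activated cells. Lpl, lipoprotein lipase, had 1581, 3256 and 948 CPM in Lum-bearing members, 81.7, 87.9 and 28.2 CPM in low-Lum members and 202, 597 and 571 CPM in activated cells. Gdf10, a BMP-family ligand, had 186, 100.2 and 32.8 CPM in gated and 1.52, 1.38 and 6.75 CPM in activated cells, but 1 cell held 73.2% of its UMIs in gated cells of KPCA.A. Mature adipocyte markers were at or near 0, with Adipoq, Plin1, Cidec, Lep and Cfd undetected in the gated cells of every line.

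The contractile list had lower medians in gated cells, at -1.49, -0.38 and -0.81 over 13 genes, and Acta2, Tagln and Tnc were 2-fold or more lower in all 3 libraries, next to 0.58% of all genes. Acta2, smooth muscle actin, had 113, 63.8 and 57.4 CPM in gated and 833, 155 and 525 CPM in activated cells. Hypoxia and glycolysis genes had medians of -1.24, -0.40 and -0.70 (20 genes), and -1.95, -1.34 and -0.85 in Lum-bearing members (19 genes), where Hilpda, Pgk1, Eno1, Tpi1 and Gapdh were 2-fold or more lower in all 3, next to 1.26% of all genes. Vegfa, the endothelial growth factor, had 92.8, 18.2 and 152 CPM in gated cells and 485, 59.2 and 391 CPM in activated cells. Vegfd, a lymphatic growth factor, ran the other way with 46.4, 179 and 114 CPM and 9.12, 33.0 and 21.1 CPM.

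Matrix lists did not move alike in the 3 lines. Collagen processing genes had medians of -1.27, -0.01 and -0.66 and the elastic fibre and glycoprotein list -1.06, 0.40 and -0.33, below 0 in KPCA.A and KPCA.C. In Lum-bearing members over activated cells they had -1.08, 0.26 and -0.38 and -0.20, 0.96 and 0.37, so the elastic fibre list turned in KPCA.C. Lox, the collagen crosslinking oxidase, had 262, 197 and 659 CPM in gated and 1643, 211 and 1237 CPM in activated cells. Fn1, fibronectin, was lower in all 3, with 1565, 1825 and 1975 CPM in gated and 4933, 4476 and 5833 CPM in activated cells. Against low-Lum members, Lum-bearing members had collagen list medians of 1.66, 1.97 and 1.29, and 8 of 14 collagen genes were 2-fold or more higher in all 3, next to a background of 5.06%.

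Complement genes had higher medians in gated cells, at 0.64, 0.43 and 1.04 over 9 genes. C3, the central complement protein, had 5304, 8610.3 and 7679.9 CPM in gated and 1766, 6349 and 2492 CPM in activated cells, and Cfb, factor B of the alternative pathway, 477, 413 and 501 CPM and 137, 176 and 169 CPM. Cfb was the one member that was 2-fold or more higher in all 3 (background 0.721%). Lum-bearing members had complement medians of 0.14, 0.94 and 1.26 over activated cells, and there C1ra and C1s1, which start the classical pathway, and not Cfb were 2-fold or more higher in all 3 (background 1.82%).

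The other lists had these medians in gated over activated cells. Proteases and inhibitors had -0.81, 0.24 and -0.31, collagens -0.42, 0.25 and -0.28, chemokines and cytokines 0.84, 0.19 and 0.20, and growth factors -0.39, 0.08 and -0.26. Retinoid, lipid and steroid genes had -0.16, -0.09 and 0.05, serosal and omental transcription factors 0.32, 0.23 and 0.43, and dissociation stress genes 0.37, 0.41 and 0.18. Some signs turned when Lum-bearing members alone were set over activated cells. Proteases and inhibitors then had 0.42, 0.31 and 0.27, which turned KPCA.A and KPCA.C, and retinoid, lipid and steroid genes 0.43, 0.32 and 0.32, which turned KPCA.A and KPCA.B. Collagens had -0.58, 1.27 and -0.06, chemokines and cytokines 0.17, 0.13 and 0.92, and growth factors -0.33, 0.23 and -0.56, each with the signs of all gated cells. Transcription factors had 0.31, 0.22 and 0.33 and stress genes 0.49, 0.47 and 0.31.

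Interferon response and antigen presentation genes had medians of 0.61, 0.21 and 1.01 and 0.20, 0.47 and 1.004 in gated over activated cells. In Lum-bearing members over activated cells they had 0.39, 0.07 and 0.27 and -1.31, 0.01 and 0.65, so antigen presentation turned in KPCA.A and was near 0 in KPCA.B. Their levels in gated cells also differed between lines, with medians of -1.14 and -1.49 for KPCA.A over KPCA.C and -0.84 and -0.66 for KPCA.B over KPCA.C, comparisons that share the KPCA.C library. Cd74, the invariant chain of MHC class II, had 222, 455 and 1127 CPM in gated cells in KPCA.A, KPCA.B and KPCA.C, and 21.4, 40.7 and 492 CPM in Lum-bearing against 312, 791 and 1585 CPM in low-Lum members. Macrophages also express Cd74, and their markers summed to 109, 66.8 and 79.6 CPM in gated cells. The part of macrophage RNA in the Cd74 levels was not tested.

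**Figure D5:**
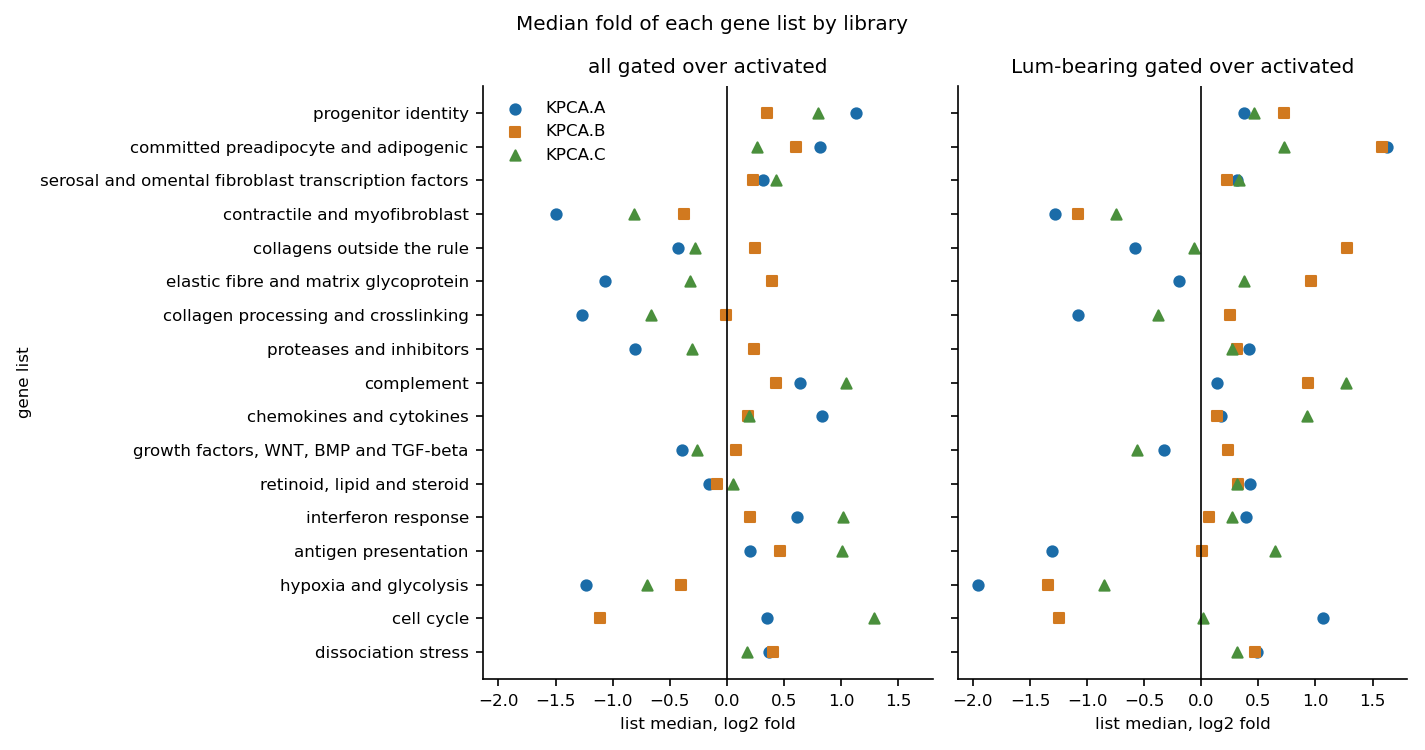
Rows are 17 gene lists, and points give the list's median log2 fold over activated cells (x axis) in each library, for all gated cells (left) and Lum-bearing ones (right). Hypoxia and contractile lists lie left of 0 in all 3 libraries in both panels, and the cell cycle list lies on both sides of 0.

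Between lines, 632 of 4917 genes (12.9%) were 2-fold or more apart in gated cells for KPCA.A over KPCA.B, with 5.67% higher and 7.18% lower. For KPCA.A over KPCA.C these were 615 of 6934 (8.87%, with 2.94% higher and 5.93% lower), and for KPCA.B over KPCA.C 777 of 7106 (10.9%, with 4.69% higher and 6.25% lower). Several of the genes furthest apart were concentrated in 1 cell or in low-Lum members. Slpi, a leukocyte protease inhibitor, had 3109.7, 42.5 and 196 CPM in gated cells in KPCA.A, KPCA.B and KPCA.C, but 1 KPCA.A cell held 65.0% of its UMIs, and Lum-bearing members had 10.7, 33.9 and 11.2 CPM. Saa3, an acute phase protein, had 8639, 662 and 1741 CPM, with 82.7% of the KPCA.A UMIs in 1 cell, and 1985 CPM in KPCA.A without it. In KPCA.B, 1 cell held 75.2% of the UMIs of Cxcl13, a B cell chemokine, and 1 held 98.8% of those of the neutrophil chemokine Cxcl5. Without those cells the KPCA.A level of Slpi was 1441 CPM, and the KPCA.B levels were 301 CPM for Cxcl13 and 7.24 CPM for Cxcl5. For Cxcl5 the KPCA.B level then lay below that of KPCA.A.

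Itih5 and Tppp3 were detected in many of the gated cells. Itih5, a hyaluronan-binding matrix protein, was highest in KPCA.B with 159, 710.4 and 191 CPM in gated cells of the 3 lines, detected in 11, 20 and 16 cells, and 513, 1425 and 419 CPM in Lum-bearing members. Activated cells did not share that order, at 333, 311 and 412 CPM. Tppp3, a tubulin-binding protein, was lowest in KPCA.C with 139, 243 and 49.2 CPM in 9, 18 and 8 cells, and 320.5, 393 and 106 CPM in Lum-bearing members. Igfbp5, an insulin-like growth factor binding protein, had 378, 352 and 107 CPM and was also lowest in KPCA.C, although 1 cell held 64.0% of its KPCA.A UMIs and the KPCA.A level without it was 147 CPM.

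Some line differences were also seen in activated cells. Mt2, a metal-binding metallothionein, had 215, 18.2 and 819.5 CPM in gated and 676, 59.2 and 824 CPM in activated cells, lowest in KPCA.B in both. Ncam1 was lowest in KPCA.B in both classes, as given above.

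Further named genes were highest or lowest in 1 line. For KPCA.A, Car4 (189, 18.2 and 34.0 CPM) and Pla2g4a (159, 21.3 and 28.1 CPM) were highest, and Adamts15 (36.5, 121 and 128 CPM), C4b (29.8, 97.2 and 174 CPM), Raph1 (43.1, 149 and 129 CPM) and Lrrn4 (63.0, 322 and 172 CPM) were lowest. Car4 had 0, 0 and 72.7 CPM in Lum-bearing members, so KPCA.A was not highest there. For KPCA.B, Des (59.7, 413 and 116 CPM) was high, and Tdo2 (209, 3.04 and 121 CPM) and Cenpa (143, 9.11 and 86.6 CPM) were low. For KPCA.C, Ptx3 (6.63, 15.2 and 208 CPM), Emb (9.95, 6.07 and 122 CPM) and Rsad2 (13.3, 12.1 and 121 CPM) were high, Vsig8 (119, 103 and 25.8 CPM) was low, and 1 cell held 79.6% of the KPCA.C Rsad2 UMIs. In Lum-bearing members Pla2g4a was not highest in KPCA.A, Cenpa not lowest in KPCA.B and Vsig8 not lowest in KPCA.C. Without Clec3b in the gate Des was not highest in KPCA.B, nor Rsad2 in KPCA.C, and thinning also changed the order for Des. Values for these and other changes of order are given at the end.

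Transcripts of other cell types were present in the gated cells. Immunoglobulin and lymphocyte markers summed to 92.8, 1087 and 178 CPM, against 4740.4, 93316 and 5787 CPM outside the fibroblast gate, and Cd3d, Cd3e, Trac, Cd79a, Cd79b and Ms4a1 were at 0 in gated cells of all 3 lines. Pancreatic acinar markers summed to 699.5, 252 and 129 CPM in gated and 1306, 2181 and 294 CPM in outside cells. Pericyte and smooth muscle markers summed to 143, 465 and 146 CPM and neutrophil markers to 9.95, 0 and 1.17 CPM in gated cells. Lymphoid stromal markers summed to 69.6, 1023 and 112 CPM, and Cxcl13 gave 1017 CPM of the KPCA.B sum. Glial markers summed to 6.63, 3.04 and 2.34 CPM. The part of free RNA and of doublets in these sums was not tested.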

How the data were processed

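Raw counts of UMIs fill the deposited matrices, which the authors made with Cell Ranger 4.0.0 (tumors) and 3.0.2 (ascites) per the file headers. The submitters' processing notes name Cell Ranger 3.1.0 and mm10. Other deposited values are the gene identifiers, symbols and barcodes. The labels state the 3' v2 kit throughout, while barcodes beginning AAACCC numbered 9, 3 and 4 in the tumors and 0 in ascites. Total counts were 58591493, 40054369 and 95130645 UMIs in KPCA.A, KPCA.B and KPCA.C and 7420674 in ascites.

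A kept barcode had 300 genes or more, 500 UMIs or more and mitochondrial UMIs of 15% or less. No doublet caller was used. Summed UMIs of a class in a library were scaled to CPM. Genes needed 20 UMIs over the compared pair of classes in each library or, between lines, 20 UMIs over both libraries together. Log2 folds had 5 CPM added, and 2-fold or more was called. The 15 genes of the gate were left out of calls. Folds have exact conditional intervals and shares Clopper-Pearson ones. Only the fold intervals were checked on simulated counts, which had counting error but no spread between cells. Cells of the macrophage gate had at least 2 Ptprc and 3 C1q UMIs.

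The members, lists and rules were chosen with earlier results of these data known. Named genes were the 15 highest and 12 lowest in all 3 libraries at 50 CPM, the 4 highest and 4 lowest per line (50 CPM, 30 UMIs and at least 0.5 of the level outside the gate), the 12 furthest apart each way in the Lum division, and up to 6 per list, of which the text gives a part. Some named genes are not reported here. Alternatives covered cell filters, gate thresholds and genes, depth, summing, scaling, pseudocount, low-count filter and libraries. The tools were scipy 1.17.1, numpy 2.4.6, pandas 2.3.3 and matplotlib 3.10.9 in python 3.11.15. Coordinates are from GENCODE vM21 (GRCm38).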

Additional observations from a re-analysis of the deposited data

Results flagged for a closer look

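The cell cycle list moved in opposite directions in 2 lines. Its median over 15 genes, gated over activated cells and relative to all genes, was -1.15 in KPCA.B and 1.25 in KPCA.C, with 0.37 in KPCA.A. The difference was not tested, since each line had 1 library. In Lum-bearing members over activated cells the list median, not taken relative to all genes, was 1.06, -1.24 and 0.01 over 7 genes in KPCA.A, KPCA.B and KPCA.C. The KPCA.C median was thus near 0 in Lum-bearing members. Mki67, a proliferation marker, had 82.9, 42.5 and 86.6 CPM in gated cells in KPCA.A, KPCA.B and KPCA.C, against 63.8, 131 and 14.3 CPM in activated cells. Cenpf, a kinetochore protein, had 43.1, 18.2 and 156 CPM and 18.2, 128 and 10.1 CPM. Lum-bearing members had 32.0, 40.7 and 2.80 CPM of Cenpf and low-Lum members 48.1, 0 and 266 CPM, and 1 cell held 89.5% of the Cenpf UMIs of gated KPCA.C cells.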

How the results depend on the processing

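The gate holds 63 cells, so its counts moved with most choices. No paired analysis was possible because lines have 1 library each, and the classes paired within libraries were chosen from the same counts, so that contrast was not tested. Leaving out cells with 3 or more UMIs of other cell types' markers left 6, 1 and 1 gated cells, fewer than the 3 per library needed for a value in KPCA.B and KPCA.C, so no class comparison was run there. Depth limits the gate itself, since shallow cells can miss the 3 gate UMIs and deep cells can pass on few per 10000.

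The shares of the fibroblast gate, 11.7%, 29.7% and 21.8% in KPCA.A, KPCA.B and KPCA.C, became 3.94%, 18.0% and 8.41% after thinning, and 4.91%, 5.41% and 12.9% without Clec3b in the gate, where KPCA.C and not KPCA.B was highest. With 5 gate UMIs required they were 5.52% in KPCA.A and 13.9% in KPCA.C, and with Lum-bearing members alone 11.9% in KPCA.C.

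The 41 higher and 33 lower genes in all 3 libraries were out of 5686 measured, and the settings measured different numbers of genes. The counts became 69 and 58 of 4847 with 5 gate UMIs, 26 and 14 of 487 after thinning, and 65 and 52 of 5148 without Dpp4. Lum-bearing members alone (an alternative chosen after seeing the data) gave 88 and 61 of 4837, and the mean over cells 86 and 52 of 5686. They were 93 and 62 of 12265 with genes of at least 1 UMI, and 15 and 19 of 2796 with at least 50 UMIs. The higher count was 15 of 5181 without Clec3b and 27 of 5686 with 20 CPM added. Leaving out 1 library gave 75 to 137 higher and 42 to 147 lower genes of 5706 to 6526, since fewer libraries had to meet the call. Thinning kept 7 of the 41 and 2 of the 33 genes, where genes outside the 487 measured could not be called. Dropping Clec3b from the gate kept 5 of the 41.

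Genes apart between lines numbered 632 of 4917, 615 of 6934 and 777 of 7106 for KPCA.A over KPCA.B, KPCA.A over KPCA.C and KPCA.B over KPCA.C. After thinning they were 133 of 596, 93 of 507 and 156 of 771, so the counts fell while the shares of measured genes rose. With 20 CPM added they were 314, 235 and 328 of the same 4917, 6934 and 7106 genes. At least 1 UMI gave 2631 of 13158, 1615 of 14040 and 1804 of 14138, and at least 50 UMIs gave 208 of 2112, 241 of 3722 and 326 of 3850. Lum-bearing members alone gave 397 of 2161 for KPCA.A over KPCA.B. The mean over cells gave 1277 of 6934 for KPCA.A over KPCA.C and 1320 of 7106 for KPCA.B over KPCA.C. Requiring 5 gate UMIs gave 941 of 4161 for KPCA.A over KPCA.C, and dropping Clec3b gave 1327 of 5023 for KPCA.B over KPCA.C.

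Of 17 lists, 0 had medians 0.5 or more above those of all genes in all 3 libraries, and 0 below. These counts were 1 and 2 with 5 gate UMIs, with the wider margin over the activated genes and with Lum-bearing members alone. They were 3 and 1 of 14 measured lists after thinning, 2 and 2 without Dpp4, 3 and 2 with the mean over cells, 1 and 1 without Pi16 and 1 and 1 without Clec3b. With at least 1 UMI, 1 list lay above.

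Without Clec3b in the gate, the lowest log2 fold of the 3 libraries fell below 0 for 5 genes, at -0.0016 in Abca8a, -2.47 in Ptn, -0.019 in Gas6, -0.47 in Dpep1 and -0.16 in Lama2. Differences between lines, given as the log2 fold of the line with the highest or lowest level of a gene over the nearer other line, also changed sign. With Lum-bearing members alone they were -1.31 for Slpi, -3.96 for Car4, -0.50 for Pla2g4a, -1.73 for Saa3, 0.92 for Cenpa and 3.47 for Vsig8. With 5 gate UMIs they were -1.70 for Slpi, -2.87 for Car4, -0.14 for Pla2g4a, -0.84 for Saa3 and -0.29 for Cxcl5. After thinning they were -3.57 for Pla2g4a, -0.20 for Saa3, -0.66 for Des, 3.57 for Ncam1, 3.57 for Cenpa and 0.56 for Gdf10. Without Clec3b they were -3.80 for Cxcl13, -4.54 for Cxcl5, -1.63 for Des and -0.94 for Rsad2. With the wider margin Cxcl5 gave -2.95 and without Dpp4 -0.64. The cause of these changes was not tested. Beyond the values above, 85 comparisons stayed within their limits, and of the single genes and lists 880 values kept their level and 163 moved. Changes of sign were counted for single genes only. Some list values within these counts also changed sign, such as proteases and inhibitors with Lum-bearing members alone.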
